A study of Mus musculus with 27 samples.

Results

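Proximal and distal colon of the same mouse were compared to ask whether loss of Foxa1 and Foxa2 changed gene expression differently along the colon. Of 27 libraries from 14 mice, 26 libraries from the 13 mice sampled in both segments were used, and the mouse with a single segment was left out. Within each mouse the distal level of a gene was set against its proximal level as a log2 ratio, and these ratios were compared between 6 control and 7 Foxa1/2-deficient mice. The difference between the genotypes in that ratio is called the interaction here: a positive value means that the genotype effect, deficient over control, was higher in distal than in proximal colon.

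All mice were of mixed background and between 9 and 18 months old. Deficient mice carried Villin1-Cre with both alleles of Foxa1 and of Foxa2 flanked by loxP sites. Their ages were 9, 9, 10, 10.5, 13, 11 and 12 months for replicates 1 to 7, and replicates 5 and 7 were labelled female and the others male. All control mice were labelled male. Control replicates 2, 3, 4 and 5 had all 4 floxed alleles and no Cre, at 9, 10.5, 11 and 18 months. Control replicate 1 carried Villin1-Cre and 1 floxed allele of each gene at 10.5 months. Control replicate 6 carried Villin1-Cre, both floxed alleles of Foxa1 and 1 floxed allele of Foxa2 at 18 months. Villin1-Cre is active in the intestinal epithelium, and short segments of whole colon wall gave the RNA, so that muscle, stroma and immune cells of the same pieces keep both genes.

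FOXA1 and FOXA2 are forkhead transcription factors that can bind their sites in closed chromatin and open it for other factors. In the intestine they are best known for the secretory lineages, where they act on goblet cells and on hormone-producing enteroendocrine cells. The proximal and distal colon differ in their enterocytes, mucus, hormone cells and Hox gene expression, and the proximal segment normally shares more of its absorptive genes with the small intestine. A factor present in both segments can therefore meet different sets of active genes.

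The targeted genes were examined first. Foxa2 ranged from 6.03 to 15.7 CPM (read counts scaled to library size; median 7.32) in proximal control and from 1.23 to 1.75 CPM (median 1.36) in proximal deficient tissue. Distal Foxa2 ranged from 15.5 to 30.2 CPM (median 18.8) in control and from 0.325 to 1.37 CPM (median 0.92) in deficient mice. The genotypes did not overlap in either segment. Foxa2 was higher in distal than in proximal colon of 6 of 6 control mice and of 1 of 7 deficient mice. It fell by 2.64 ± 0.21 in proximal and by 4.48 ± 0.26 in distal colon (log2, SE), with an interaction of -1.93 ± 0.29 (adjusted p = 0.0046 by the edgeR quasi-likelihood test). Foxa1 did not show such a difference: it fell by 2.22 ± 0.27 in proximal and by 2.48 ± 0.36 in distal colon on the log2 scale, with an interaction of -0.14 ± 0.20 (adjusted p = 0.83).

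The values of 2 mice stood apart, 1 from its group and 1 from its label. Control replicate 6 carried Villin1-Cre and both floxed alleles of Foxa1, a genotype that predicts low epithelial Foxa1. It had Foxa1 at 13.9 CPM proximally and 7.57 CPM distally, where the other control mice had 50.7 to 69.1 and 42.2 to 80.4 CPM. The Foxa2 level of control replicate 6 was within or above the range of the other control mice. Deficient replicate 3, labelled male, had the Y-linked Ddx3y at 0.0215 and 0.614 CPM, where the mice labelled female had 0.0611 to 0.294 CPM and every other mouse labelled male had at least 33.2 CPM. Its proximal segment held 43.9 CPM of the Paneth cell defensins Defa17, Defa24 and Defa30 summed, against at most 2.29 CPM in every other library. With both mice left out, 125 genes were called for the interaction, and 104 of them were among the genes called with all mice. Among the 56 called genes named by rule below, 43 were called without these 2 mice. Epithelium was present in both segments of every mouse, with Epcam between 1727 and 3323 CPM, and the segment labels matched Hoxb13, a marker of the posterior gut, at 0 to 0.0988 CPM in proximal and 110 to 496 CPM in distal libraries.

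Of 17595 genes tested, 178 passed for the interaction (edgeR quasi-likelihood test with mouse as block, Benjamini-Hochberg adjusted p under 0.05), which is 1.01% of the genes tested. The distal-to-proximal ratio was higher in deficient mice for 76 of them (0.432%) and lower for 102 (0.58%), and 140 differed by at least 2-fold. Unadjusted p was under 0.05 for 2026 genes. The within-mouse ratios of the 6 control and 7 deficient mice did not overlap for 116 of the 178, against 180 of all genes tested (1.02%). The 178 were chosen by a test of the same difference in the same mice, so this count was largely set by that choice. It is no separate evidence. In the same mice 1704 genes differed between genotypes in proximal colon (9.68%) and 986 in distal colon (5.6%), so most genotype effects were not shown to differ between the segments. The segments themselves differed at 7903 genes in control mice (44.9%) and at 8810 genes in deficient mice (50.1%).

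The 178 genes fell into 5 patterns by the genotype effect in each segment. The effect passed in distal colon alone for 79 genes, of which 39 were higher and 40 lower in deficient mice. It passed in proximal colon alone for 49 genes, 34 higher and 15 lower. In 28 genes it passed in both segments in the same direction but with different sizes, with 15 higher and 13 lower in both. Opposite effects in the 2 segments passed for 8 genes, which were all the genes with that pattern among the 17595. The remaining 14 genes passed for the interaction but in neither segment alone. As seen from the segments, 41 of the 178 differed between segments in control mice alone, 56 in deficient mice alone, 53 in both in the same direction and 28 in both in opposite directions. The distance between segments was smaller in deficient than in control mice for 94 of the 178 (52.8%), against 49.6% of all genes.

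**Figure D1:**
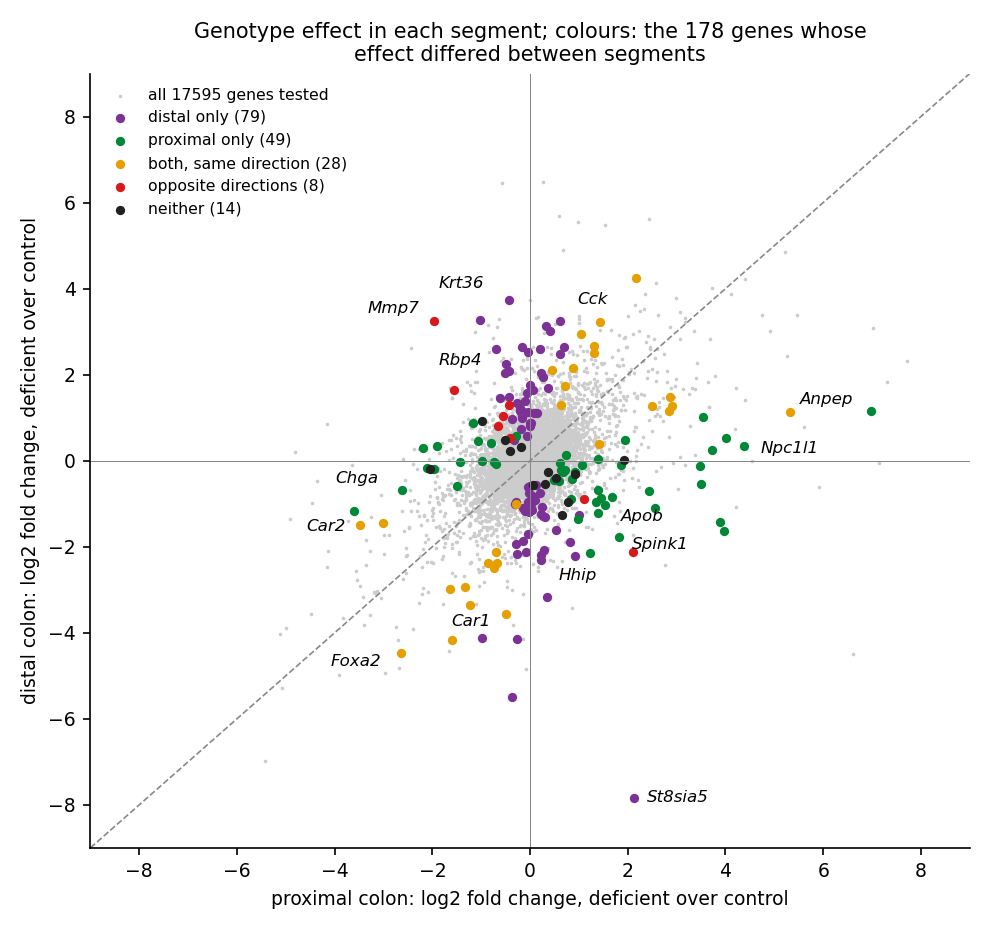
Genotype effect in proximal colon (x axis, log2 fold change of deficient over control) against that in distal colon (y axis) for the 17595 genes tested, 1 point per gene, with the 178 genes of the interaction coloured by pattern; the dashed line marks equal effects, and 2 genes, 1 of them coloured, lie outside the axis limit of 9. Anpep and Npc1l1 lie far to the right near a distal effect of 0.33 to 1.12, Cck, Rbp4 and Krt36 lie high near proximal effects of -0.43 to 0.62, and Mmp7 lies in the quadrant of opposite effects.

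The genes that rose in proximal colon, by far more than in distal colon, were led by enterocyte genes typical of the small intestine. Anpep, aminopeptidase N of the brush border (chromosome 7, 79821803 to 79861059, GRCm38), ranged from 6.01 to 16.7 CPM (median 8.47) in proximal control and from 112 to 639 CPM (median 386) in proximal deficient colon. In distal colon it ranged from 5.08 to 9.00 CPM (median 7.11) in control and from 7.5 to 21.6 CPM (median 16.6) in deficient mice. Every deficient mouse was thus above every control mouse in proximal colon by a wide margin, whereas the distal ranges overlapped. Anpep rose by 5.32 ± 0.43 in proximal and by 1.12 ± 0.23 in distal colon (log2, SE), and its interaction of -4.15 ± 0.39 had an adjusted p of 0.000289, the smallest of all genes and the same as that of Rbp4 below.

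Npc1l1, the uptake protein for dietary cholesterol, rose by 4.38 ± 0.42 in proximal colon, from a median of 0.787 to 20.9 CPM. In distal colon Npc1l1 stayed at or under 0.66 CPM in every mouse, and its interaction was -4.13 ± 0.64 (adjusted p = 0.00517). With the smooth muscle level as covariate, described below, Npc1l1 was at -3.48 and did not pass (adjusted p = 0.058). The distal genotype effect of Npc1l1 was 0.33 on the log2 scale and did not pass.

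Slc15a1, the peptide transporter PEPT1, is an example of a gene that control mice restricted to the distal segment. It ranged from 1.26 to 3.93 CPM (median 1.68) in proximal and from 76.1 to 309 CPM (median 105) in distal control colon. Deficient mice had 9.13 to 56.8 CPM (median 21.3) in proximal and 137 to 253 CPM (median 151) in distal colon. The proximal ranges did not overlap, the distal ranges did, and the interaction was -3.13 ± 0.46 (adjusted p = 0.00433). Slc34a2, a sodium-phosphate cotransporter, followed the same course, with proximal medians of 5.84 CPM in control and 115 CPM in deficient mice and an interaction of -2.78 ± 0.46 (adjusted p = 0.00745). Without the block for mouse this call of Slc34a2 was lost (adjusted p = 0.0586 over the 26 libraries). Spink1, a trypsin inhibitor, was 5.63 to 12.2 CPM in proximal and 216 to 757 CPM in distal control colon. Spink1 rose by 1.82 ± 0.39 in proximal deficient colon, and its distal levels there ran from 9.33 to 233 CPM, overlapping the control range. The distal effect of Spink1, -1.76 ± 0.56, did not pass (adjusted p = 0.0879), and it had an interaction of -3.76 ± 0.59 (adjusted p = 0.00552).

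Apob, the structural protein of chylomicrons, moved apart in the 2 segments. It ranged from 72.3 to 152 CPM (median 115) in proximal control and from 164 to 462 CPM (median 233) in proximal deficient colon, without overlap, and rose by 1.35 ± 0.25. In distal colon it ranged from 54.3 to 308 CPM (median 183) in control and from 41.8 to 172 CPM (median 71.7) in deficient mice, with overlap, and its distal effect of -0.97 ± 0.37 did not pass (adjusted p = 0.175). The interaction of Apob was -2.28 ± 0.32 (adjusted p = 0.00366). Ccl25, the chemokine that draws lymphocytes to the small intestine, rose in both segments but more in proximal colon, from a median of 7.09 to 55.6 CPM there and from 7.43 to 17.9 CPM in distal colon (interaction -1.71 ± 0.23, adjusted p = 0.00339). Fmo4, a flavin monooxygenase, had a proximal median of 1.97 CPM in control and 4.87 CPM in deficient mice. Its distal medians were 6.11 and 3.28 CPM, and its interaction was -2.23 ± 0.24 (adjusted p = 0.000615). Chp2, a calcineurin-like cofactor of sodium-proton exchangers, rose by 1.40 ± 0.17 in proximal colon and had a distal effect of 0.04 ± 0.20 (interaction -1.41 ± 0.20, adjusted p = 0.00339). Cndp2, a cytosolic dipeptidase, rose by 0.92 ± 0.13 in proximal colon, with a distal effect of -0.27 ± 0.09 that did not pass (interaction -1.17 ± 0.17, adjusted p = 0.00393).

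As a list, the small-intestinal enterocyte genes had 18 tested members of 21. In proximal colon 15 of the 18 rose, and in distal colon 8 rose, and none fell in either segment. Of all genes tested 4.44% rose and 5.25% fell in proximal colon, and 2.61% rose and 2.99% fell in distal colon. For the interaction 3 of 18 passed (16.7%, against 1.01% of all genes), all lower (Anpep, Apob and Npc1l1). The median interaction was -1.55, against a median of 0.015 over all genes tested. Positive values were found for 2 of the 18, where 9208 of all 17595 were. The summed level of the list was 716 to 1379 CPM in proximal control and 1684 to 4537 CPM in proximal deficient colon, without overlap. In distal colon the sums were 464 to 754 CPM in control and 431 to 1049 CPM in deficient mice, and they overlapped. Leaving out control replicate 6 brought the number that passed to 7, and DESeq2 called 9 and limma 7.

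The list was not uniform. Apoa1 and Apoa4, apolipoproteins of chylomicrons, had larger interactions (-5.33 and -5.28) that just missed the threshold (adjusted p = 0.053 and 0.0564). Their mean proximal levels were 0.4 and 0.365 CPM in control and 64.2 and 80.3 CPM in deficient mice. Enpep, glutamyl aminopeptidase, rose by 3.18 in proximal and by 3.22 in distal colon (interaction -0.19, adjusted p = 0.859). Slc6a19, the neutral amino acid transporter, rose by 4.39 and 4.22 (interaction -0.45, adjusted p = 0.825). Sis, sucrase-isomaltase, rose by 2.46 and 2.64 (interaction -0.30, adjusted p = 0.922), and Alpi, intestinal alkaline phosphatase, by 2.23 and 3.02 (interaction 0.69, adjusted p = 0.772). Brush border enzymes and transporters therefore included genes with a proximal excess and genes whose effects were not shown to differ between segments. The call of Slc6a20a, a proline transporter, was weak: its interaction of -1.40 ± 0.31 had an adjusted p of 0.0465 and was lost under 20 of 30 alternatives, including with each of 10 single mice left out.

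**Figure D2:**
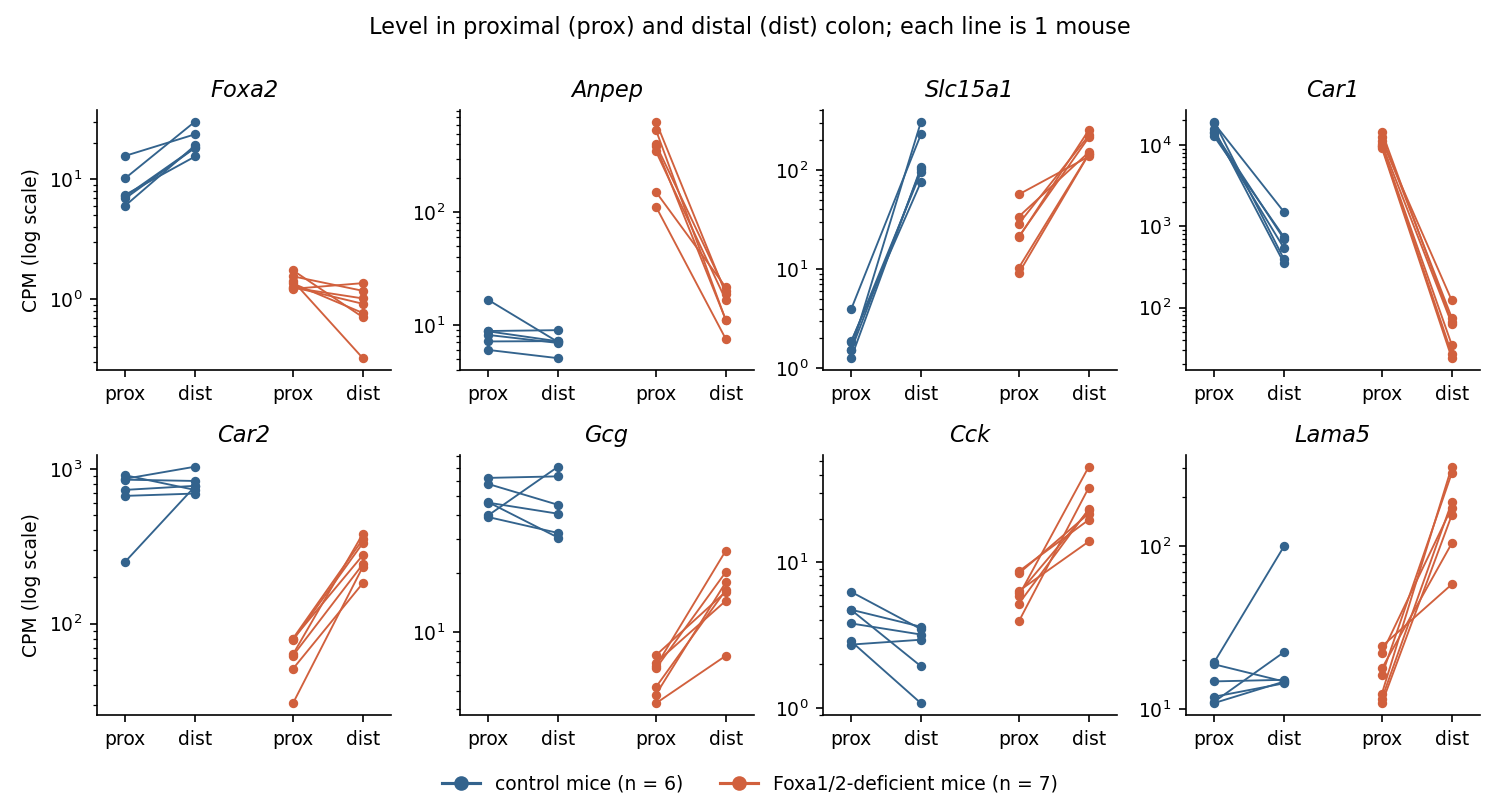
Level of 8 genes in proximal (prox) and distal (dist) colon on log axes in CPM, 1 line per mouse, with 6 control mice in blue and 7 deficient mice in orange; each panel has its own axis. Proximal Anpep of deficient mice lies between 112 and 639 CPM, above all other values, distal Car1 of deficient mice between 23.9 and 122 CPM, below all other values, and the lines of Car2, Gcg and Cck climb in every deficient mouse.

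The carbonic anhydrases Car1 and Car2, which colonocytes use for bicarbonate and acid handling, fell in both segments, Car1 by more in distal and Car2 by more in proximal colon. Car1 ranged from 12690 to 19307 CPM in proximal control and from 9149 to 14389 CPM in proximal deficient colon, a fall of 0.50 ± 0.13 on the log2 scale. In distal colon it ranged from 351 to 1494 CPM (median 614) in control and from 23.9 to 122 CPM (median 63.1) in deficient mice, without overlap, where it fell by 3.56 ± 0.44. The interaction of Car1 was -3.10 ± 0.40 (adjusted p = 0.00258), although DESeq2 did not call it (adjusted p = 0.138). Car2 ranged from 251 to 909 CPM (median 791) in proximal control and from 30.5 to 80.1 CPM (median 63.2) in proximal deficient colon. Its distal levels were 692 to 1033 CPM (median 774) in control and 183 to 381 CPM (median 277) in deficient mice, again without overlap. Car2 thus fell by 3.47 ± 0.29 in proximal and by 1.49 ± 0.16 in distal colon (interaction 1.92 ± 0.28, adjusted p = 0.00433). The lowest proximal control value of Car2, 251 CPM, belonged to control replicate 6. Of the 18 absorptive colonocyte genes Car1 and Car2 were the 2 that passed (11.1%, against 1.01% of all genes), and the list median was -0.57. Ano1, a calcium-activated chloride channel, was the 1 of 30 ion and water transport genes that passed (interaction 1.20 ± 0.27, adjusted p = 0.0469), and its call was lost under 18 of 30 alternatives, 9 of them single mice left out.

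Of 13 tested hormone and granule genes of the gut hormone list, 5 passed for the interaction, all higher (38.5%, against 1.01% of all genes). The list was mixed, with 8 of 13 values positive and a median of 0.52. Of the 5, Gcg fell in both segments but less in distal colon, Chga and Pyy fell in proximal colon alone, and Cck and Chgb rose in distal colon alone. Because whole tissue was sequenced, fewer cells of a type and less RNA per cell cannot be told apart, here or for the other cell types. Gcg, which encodes glucagon-like peptides, ranged from 39.0 to 62.0 CPM (median 46.4) in proximal control and from 4.30 to 7.59 CPM (median 6.50) in proximal deficient colon. Distal Gcg was 30.6 to 70.8 CPM (median 42.8) in control and 7.55 to 26.2 CPM (median 16.4) in deficient mice. Neither segment overlapped, and Gcg fell by 3.0 ± 0.15 in proximal and by 1.45 ± 0.26 in distal colon (interaction 1.55 ± 0.24, adjusted p = 0.0054). Chga, the granule protein chromogranin A, fell in proximal colon from a median of 110 CPM (76.8 to 215) to 18.9 CPM (17.3 to 27). Its distal ranges of 30.5 to 70.5 and 19.2 to 37.1 CPM overlapped, with an effect of -0.67 ± 0.20 that did not pass (interaction 1.91 ± 0.29, adjusted p = 0.00509).

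Pyy, the hormone peptide YY, was reduced in proximal colon, from 30.3 to 38.9 CPM in control to 10.1 to 20.3 CPM in deficient mice, without overlap. In distal colon its ranges of 68.8 to 121 and 69.4 to 189 CPM overlapped (interaction 1.49 ± 0.26, adjusted p = 0.0101). The call of Pyy was lost with the smooth muscle level as covariate (adjusted p = 0.0877) and among mice of 9 to 13 months (0.0579). Cck, cholecystokinin, a hormone mostly made in the upper small intestine, ranged from 2.72 to 6.27 CPM (median 4.26) in proximal control and from 3.94 to 8.69 CPM (median 6.15) in proximal deficient colon. Distal Cck was 1.07 to 3.61 CPM (median 3.07) in control and 13.9 to 45.5 CPM (median 22.8) in deficient mice. It rose by 3.24 ± 0.32 in distal colon, where the genotypes were far apart, and its proximal effect of 0.62 ± 0.21 did not pass (interaction 2.60 ± 0.37, adjusted p = 0.00366). Chgb, chromogranin B, was the last of these 5 genes, with mean levels of 194 and 201 CPM proximally and 88.2 and 275 CPM distally in control and deficient mice (interaction 1.49, adjusted p = 0.0171).

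Other hormone genes changed strongly without a difference between segments that passed. Tph1, which makes serotonin in enterochromaffin cells, fell by 5.08 in proximal and by 5.29 in distal colon (interaction -0.20, adjusted p = 0.882). Insl5, a hormone of distal colonic L cells, fell by 5.43 and 6.97 (interaction -1.66, adjusted p = 0.698), and Sct, secretin, rose by 1.83 and 2.19 (interaction 0.14, adjusted p = 0.957). Among 22 enteroendocrine regulators and granule genes 3 passed (13.6%, against 1.01% of all genes), all higher. Scg3, a granule protein, had medians of 6.09 and 4.60 CPM proximally and 3.19 and 5.79 CPM distally in control and deficient mice (interaction 1.33 ± 0.22, adjusted p = 0.00694). Nkx2-2, a transcription factor of hormone cells, fell in proximal colon by 1.17 ± 0.24, and Pax4, another such factor, rose in distal colon by 2.05 ± 0.47 from control levels of 0.0348 to 0.172 CPM. Their interactions of 1.97 ± 0.38 and 2.48 ± 0.52 had adjusted p of 0.0203 and 0.0336. The call of Nkx2-2 was lost when control replicate 2, control replicate 5 or deficient replicate 3 was left out (adjusted p = 0.0613, 0.0529 and 0.0514), and that of Pax4 with each of 7 mice left out (adjusted p up to 0.109). Neurod1, also a transcription factor of hormone cells, rose by 1.57 in proximal and 1.63 in distal colon (interaction -0.10, adjusted p = 0.936).

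**Figure D3:**
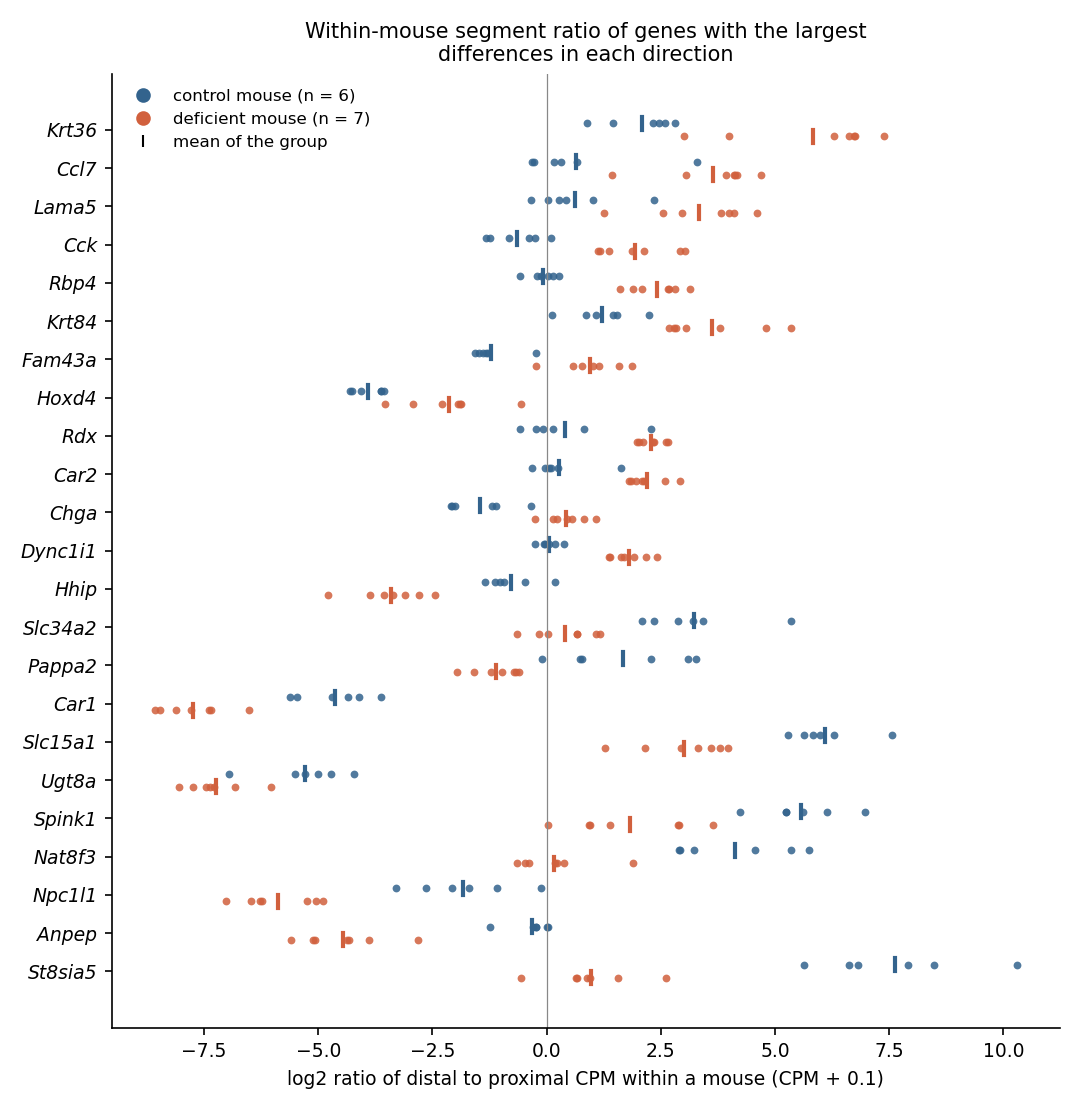
Within-mouse log2 ratio of distal to proximal CPM (x axis, with 0.1 CPM added to both) for genes with the largest positive and negative interactions among those of at least 5 CPM in their highest group, with 1 point per mouse, control mice in blue (n = 6), deficient mice in orange (n = 7) and a bar at the mean of each group. For Rbp4 the control mice lie between -0.58 and 0.28 and the deficient mice between 1.60 and 3.15, for Anpep all deficient mice lie at or below -2.81, and for Lama5 and Ccl7 control replicate 6 lies among the deficient mice.

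Distal colon also gained genes that were not of the endocrine list. Rbp4, the plasma carrier of retinol, ranged from 6.30 to 11.3 CPM (median 8.82) in distal control and from 23.2 to 54.4 CPM (median 33.8) in distal deficient colon. Its proximal levels were 7.36 to 12.0 CPM (median 8.66) in control and 4.84 to 9.49 CPM (median 5.87) in deficient mice. Rbp4 thus rose in distal colon by 2.09 ± 0.19, without overlap, while its proximal effect of -0.42 ± 0.18 did not pass, and the interaction was 2.51 ± 0.24 (adjusted p = 0.000289). Dync1i1, a dynein chain, rose in distal colon from a median of 1.64 to 7.73 CPM and had proximal medians of 1.77 and 1.95 CPM (interaction 1.80 ± 0.22, adjusted p = 0.00203). Map2, a protein that binds microtubules, rose in distal colon from 4.56 to 11.7 CPM in control to 22.4 to 42.4 CPM in deficient mice, and by 0.45 ± 0.13 in proximal colon (interaction 1.72 ± 0.22, adjusted p = 0.00212). Fzd7, a Wnt receptor, rose from a distal median of 12.1 to 34.6 CPM, with proximal medians of 11.7 and 11.3 CPM (interaction 1.45 ± 0.20, adjusted p = 0.00339). Pld2, a phospholipase, rose in both segments, by 1.31 ± 0.13 in proximal and 2.67 ± 0.19 in distal colon (interaction 1.34 ± 0.20, adjusted p = 0.00433). Rdx, radixin, which ties actin to the cell membrane, ranged from 11.9 to 72.8 CPM (median 21.8) in distal control and from 93.6 to 139 CPM (median 114) in distal deficient colon. Its proximal ranges of 13.9 to 24 and 19.2 to 30.2 CPM overlapped (interaction 1.93 ± 0.36, adjusted p = 0.0157), and the call was lost without control replicate 2 (adjusted p = 0.0503).

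Promoters are shown for Rbp4, Cck and Rdx, which all rose in distal colon, because they are among the 24 genes with the largest interactions and hold a forkhead motif. Each is printed as the 250 bases before the RefSeq start in GRCm38.p6, 5′ to 3′ on the strand of the gene, with the motif in capitals. The stretches of Rbp4 and Cck lie upstream of the genes, and that of Rdx lies in an intron of the longer gene model of GENCODE M21. The windows are chr19:38125322-38125571 on the minus strand for Rbp4, chr9:121495695-121495944 on the minus strand for Cck and chr9:52047691-52047940 on the plus strand for Rdx. In each of them the capitals read GTAAACA, which is TGTTTAC on the other strand, and begin 241, 35 and 160 bases before the start.
Rbp4: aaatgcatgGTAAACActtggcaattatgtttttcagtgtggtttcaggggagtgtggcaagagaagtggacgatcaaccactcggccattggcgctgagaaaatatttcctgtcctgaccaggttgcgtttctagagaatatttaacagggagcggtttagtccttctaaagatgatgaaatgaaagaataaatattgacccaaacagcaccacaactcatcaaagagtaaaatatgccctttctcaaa
Cck: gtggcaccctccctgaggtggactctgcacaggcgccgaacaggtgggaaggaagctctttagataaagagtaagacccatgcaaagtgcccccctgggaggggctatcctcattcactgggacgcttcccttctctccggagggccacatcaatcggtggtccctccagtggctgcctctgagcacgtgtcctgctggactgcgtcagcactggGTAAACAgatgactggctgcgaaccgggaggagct
Rdx: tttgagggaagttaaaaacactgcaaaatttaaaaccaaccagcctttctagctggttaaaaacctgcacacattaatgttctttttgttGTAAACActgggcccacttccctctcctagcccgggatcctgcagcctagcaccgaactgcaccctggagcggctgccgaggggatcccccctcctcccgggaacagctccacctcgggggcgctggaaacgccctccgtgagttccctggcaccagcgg
The motifs searched were TGTTTAC and TATTTAC, on both strands of windows of 300 bases (250 before and 50 after the start). A gene was counted once if any of its windows held a motif, so genes with more windows had more chances of a match. Of the 178 genes, 140 matched a RefSeq window by symbol, and 10 of them (7.14%) held either motif, against 707 of 12594 genes tested that had a window (5.61%). The share was 7 of 61 for genes with a positive interaction (11.5%) and 3 of 79 for those with a negative one (3.8%). Taken singly, TGTTTAC was found for 4.29% of the called genes and 3.41% of all genes with a window, and TATTTAC for 2.86% and 2.37%. A match describes the letters of the window and not a bound site.

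A further set of distal gains depended on the individual mouse. Krt36, a hair-type keratin, ranged from 1.04 to 6.11 CPM (median 1.47) in distal control and from 3.60 to 41.4 CPM (median 36.4) in distal deficient colon, and was at most 0.79 CPM in proximal colon (interaction 3.94 ± 0.71, adjusted p = 0.0121). Lama5, a laminin chain of basement membranes, ranged from 14.4 to 99.9 CPM (median 15.0) in distal control and from 58.4 to 308 CPM (median 173) in distal deficient colon, with proximal ranges of 10.9 to 19.4 and 10.9 to 24.3 CPM (interaction 2.76 ± 0.54, adjusted p = 0.0211). Ccl7, a chemokine for monocytes, ranged from 1.63 to 7.17 CPM (median 3.47) in distal control and from 4.58 to 40.8 CPM (median 17.4) in distal deficient colon (interaction 3.20 ± 0.62, adjusted p = 0.0203). For all 3 genes deficient replicate 2 was the lowest and deficient replicate 1 the next lowest of the deficient mice, control replicate 6 was the highest control, and the genotypes overlapped. The calls of Lama5 and Ccl7 were lost without control replicate 2, control replicate 4, control replicate 5 or deficient replicate 3 (adjusted p between 0.0511 and 0.0614), and that of Krt36 was kept with each single mouse left out. Krt84, another hair-type keratin, rose in distal colon from 1.72 to 7.33 CPM in control to 7.30 to 44.7 CPM in deficient mice (interaction 2.42 ± 0.49, adjusted p = 0.0267), and its call was lost with each of 5 mice left out (adjusted p up to 0.0711).

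These same mice differed in distal Hoxd13, a gene of the most posterior gut, which varied widely within both genotypes. It was 69.6, 2.90, 4.03, 0.973, 3.86 and 28.5 CPM in control replicates 1 to 6 and 1.64, 0.871, 71.3, 21, 69.3, 12.7 and 5.58 CPM in deficient replicates 1 to 7, and at most 0.183 CPM in any proximal library. Deficient replicates 1 and 2 had the lowest Hoxd13 of their genotype. Control replicate 1 had high Hoxd13 and low Krt36, Lama5 and Ccl7 (1.38, 14.8 and 1.63 CPM). With the distal Hoxd13 level of each mouse as a covariate in limma, added after the data were seen, the interactions of Krt36, Lama5 and Ccl7 were 3.55, 2.54 and 2.83 and passed (adjusted p = 0.00102, 0.00486 and 0.0056). Limma without a covariate also called all 56 of the named genes called in edgeR, with Krt36 at 3.81 (adjusted p = 0.00922). All 13 smooth muscle genes had a negative interaction (median -0.86) and none passed, where 9208 of all 17595 genes tested had a positive one. Such one-sided signs were not particular to smooth muscle. Positive values were found for 0 of 13 fibroblast, 0 of 9 adipocyte, 1 of 13 enteric neuron and glia and 1 of 10 pan-epithelial genes. For proliferation genes they were found for 20 of 20. The summed level of the smooth muscle genes was 1626 to 4473 CPM in distal control and 774 to 2415 CPM in distal deficient colon. In proximal colon it was 2171 to 4495 and 2856 to 5230 CPM. Whether it followed Krt36, Lama5 and Ccl7 from mouse to mouse was not tested. With that sum as a covariate in edgeR, also added after the data were seen, the calls of Krt36, Lama5, Krt84 and Ccl7 were lost (adjusted p = 0.132, 0.144, 0.178 and 0.084), and those of Rbp4, Cck and Anpep were kept (adjusted p = 0.00251, 0.0123 and 0.00355). The losses were not limited to these genes: 33 of the 56 named genes passed with this covariate, and 76 of the 178 calls were shared. Pyy, Nkx2-2, Pax4, Cldn2, Grasp, Tnfrsf11b, St3gal4 and Pappa2 were among the others that did not pass (adjusted p between 0.0502 and 0.104). Because the Hoxd13 covariate was fitted in limma and the smooth muscle covariate in edgeR, the calls kept or lost under them cannot be compared. The summed pan-epithelial genes ranged from 14932 to 22949 CPM in distal control and from 11961 to 20440 CPM in distal deficient colon, and 0 of 10 passed.

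**Figure D4:**
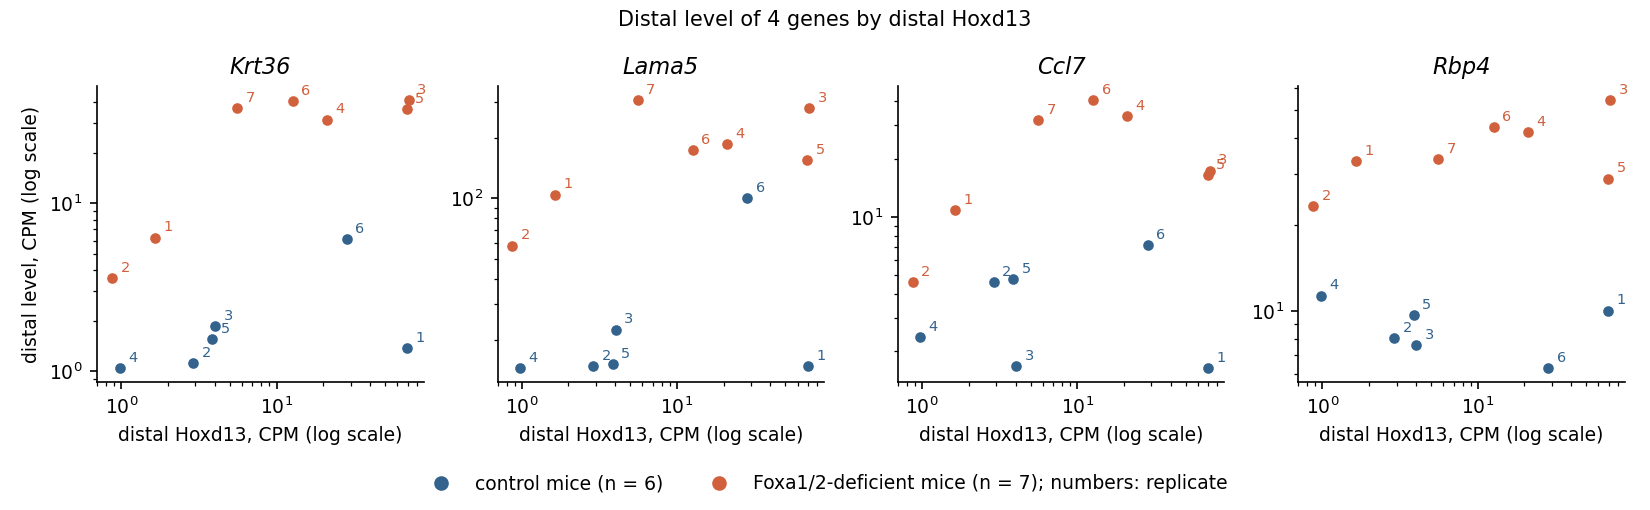
Distal level of Krt36, Lama5, Ccl7 and Rbp4 (y axes, CPM, log scale) against distal Hoxd13 (x axes, CPM, log scale), 1 point per mouse with its replicate number, control mice in blue (n = 6) and deficient mice in orange (n = 7). Deficient replicates 1 and 2, at 1.64 and 0.871 CPM of Hoxd13, are the lowest deficient mice for the first 3 genes, whereas all deficient mice lie above all control mice for Rbp4 (23.2 to 54.4 against 6.30 to 11.3 CPM).

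The fall was in distal colon alone for 40 genes. Hhip, a membrane protein that binds and restrains Hedgehog ligands, ranged from 2.26 to 4 CPM (median 2.86) in distal control and from 0.13 to 1.09 CPM (median 0.564) in distal deficient colon, without overlap. Its proximal medians were 6.14 and 6.21 CPM, so that it fell by 2.30 ± 0.35 in distal colon alone (interaction -2.70 ± 0.37, adjusted p = 0.00339). Eaf2, a transcription elongation factor partner, ranged from 14.6 to 31.6 CPM (median 18.3) in distal control and from 3.12 to 8 CPM (median 4.63) in distal deficient colon, with proximal medians of 2.51 and 2.99 CPM (interaction -2.40 ± 0.35, adjusted p = 0.00416). Nat8f3, of a family of acetyltransferase genes in near-identical copies whose reads cannot be assigned with certainty, fell in distal colon from a median of 13.8 to 0.579 CPM (interaction -4.05 ± 0.61, adjusted p = 0.00509). Pappa2, a protease of insulin-like growth factor binding proteins, fell in distal colon from 2.02 to 9.16 CPM in control to 0.13 to 0.475 CPM in deficient mice (interaction -3.06 ± 0.61, adjusted p = 0.0224). The call of Pappa2 was lost under 7 of 30 alternatives, among them without the 2 mice that stood apart (adjusted p = 0.0851), with control mice without Cre alone (0.0855) and among mice of 9 to 13 months (0.0773). St8sia5, a sialyltransferase, fell in distal colon from 4.83 to 126 CPM (median 17.7) in control to 0.0558 to 0.514 CPM (median 0.0843) in deficient mice, without overlap. Its proximal level was at most 0.157 CPM in any mouse, so its fitted interaction of -9.64 depends on how near-zero counts are treated, and the call was lost without deficient replicate 5 (adjusted p = 0.994).

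A smaller group of 15 genes fell in proximal colon alone. Fam43a, a gene of little known function, ranged from 17.8 to 46.4 CPM (median 22.5) in proximal control and from 4.66 to 9.71 CPM (median 6.80) in proximal deficient colon, without overlap. Its distal ranges of 7.18 to 19.2 and 5.11 to 20.5 CPM overlapped, and the interaction was 2.2 ± 0.31 (adjusted p = 0.00366). Ccl6, a chemokine of myeloid cells, and Nupr1, a stress-induced nuclear protein, were chosen from this group after their values were seen. Ccl6 had proximal means of 281 CPM in control and 71.3 CPM in deficient mice and distal means of 263 and 225 CPM (interaction 1.69, adjusted p = 0.00517). Nupr1 had proximal means of 208 and 76.2 CPM and distal means of 91.5 and 88.2 CPM (interaction 1.45, adjusted p = 0.0054).

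Few genes moved in opposite directions. Mmp7, matrilysin, a protease of Paneth cells and of injured epithelium, ranged from 0.692 to 6.81 CPM (median 2.99) in proximal control and from 0.197 to 2.11 CPM (median 0.621) in proximal deficient colon. Distal Mmp7 was 0.215 to 0.626 CPM (median 0.322) in control and 0.393 to 7.08 CPM (median 2.73) in deficient mice. It fell by 1.97 ± 0.52 in proximal and rose by 3.25 ± 0.65 in distal colon, with overlap of the levels in both segments but none of the within-mouse ratios (interaction 4.79 ± 0.62, adjusted p = 0.0026). Cldn2, the pore-forming claudin for cations and water, ranged from 152 to 274 CPM (median 178) in proximal control and from 100.1 to 149 CPM (median 119) in proximal deficient colon. Distal Cldn2 was 37.1 to 106 CPM (median 59.9) in control and 86.2 to 150.1 CPM (median 112) in deficient mice, and the proximal and distal ranges of deficient mice overlapped (interaction 1.54 ± 0.25, adjusted p = 0.00604). Aspa, aspartoacylase, went the other way, with medians of 7.79 and 14.9 CPM proximally and 12.4 and 6.23 CPM distally in control and deficient mice (interaction -1.91 ± 0.30, adjusted p = 0.00581). Sult1a1, a phenol sulfotransferase, had proximal medians of 280 and 208 CPM and distal medians of 141 and 209 CPM (interaction 0.92 ± 0.18, adjusted p = 0.0195), and its call was lost without control replicate 2 (adjusted p = 0.0604) and without deficient replicate 3 (0.0514). Grasp, a scaffold protein, and Tnfrsf11b, osteoprotegerin, fell in proximal and rose in distal colon too (interactions 1.61 ± 0.27 and 1.68 ± 0.31, adjusted p = 0.00794 and 0.0143). With the smooth muscle level as covariate the calls of Cldn2, Grasp and Tnfrsf11b were lost (adjusted p = 0.0612, 0.0693 and 0.0951). They were also lost among mice labelled male without the mouse lacking Y transcripts (adjusted p = 0.0816, 0.0925 and 0.162), and that of Tnfrsf11b among all mice labelled male (0.0595). Without the mouse lacking Y transcripts, mice labelled male also gave no call for Aspa and Sult1a1 (adjusted p = 0.0626 and 0.0606).

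For some of the 14 genes whose genotype effect passed in neither segment alone, the call depended on the block for mouse. Btbd3, a BTB domain protein, had within-mouse log2 ratios of -0.282 to -0.00491 in control and -1.02 to -0.48 in deficient mice, without overlap (interaction -0.61 ± 0.10, adjusted p = 0.00858). Fitted without the block for mouse, Btbd3 did not pass (adjusted p = 0.266). St3gal4, another sialyltransferase, was 1.63 CPM proximally and 5.42 CPM distally in deficient replicate 2, where the highest deficient mice had 767 and 894 CPM. Its interaction was -2.10 ± 0.36 (adjusted p = 0.0089), and without the block it did not pass (adjusted p = 0.558). Gfod1, of the same pattern, passed without the block (-0.86, adjusted p = 0.0338). Its call was lost under 8 of 30 alternatives, 3 of them single mice left out (adjusted p up to 0.15).

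Several cell type lists had genotype effects with few or no interactions that passed. Of all genes tested, 4.44% rose and 5.25% fell in proximal colon, 2.61% rose and 2.99% fell in distal colon, and 1.01% passed for the interaction. Of 22 goblet cell and mucus genes 15 fell and 1 rose in proximal colon, and 4 fell and 0 rose in distal colon, yet 0 passed for the interaction (median 0.30), and the smallest p was that of Spdef, the goblet cell regulator (0.54, adjusted p = 0.155). Of 24 inflammatory cytokines and chemokines 8 rose and 0 fell in distal colon, and 2 rose and 2 fell in proximal colon. Their median interaction was 1.03, with 20 of 24 positive, but 3 passed: Ccl7 and Ccl3 higher and Ccl25 lower, and the call of Ccl3 (adjusted p = 0.0451) was lost under 22 of 29 alternatives, 11 of them single mice left out. Of the neutrophil genes 4 of 7 rose and 0 fell in distal colon and 0 changed in proximal colon; their median interaction was 1.15 and 0 of 7 passed. All 20 proliferation genes had a positive interaction (median 0.30), and 0 passed. Of 16 squamous-type epithelial genes Krt36 alone passed (list median 0.81). Of the Hox genes, which mark position along the gut, 0 of 12 posterior ones passed (median -0.24) and 1 of 21 anterior ones did (4.76%, against 1.01% of all genes; median -0.11). That 1 was Hoxd4, with 4.05 to 8.62 and 2.43 to 6.29 CPM proximally and 0.231 to 0.431 and 0.45 to 2.00 CPM distally in control and deficient mice (interaction 1.99 ± 0.43, adjusted p = 0.0398). Its call was lost with each of 10 mice left out.

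**Figure D5:**
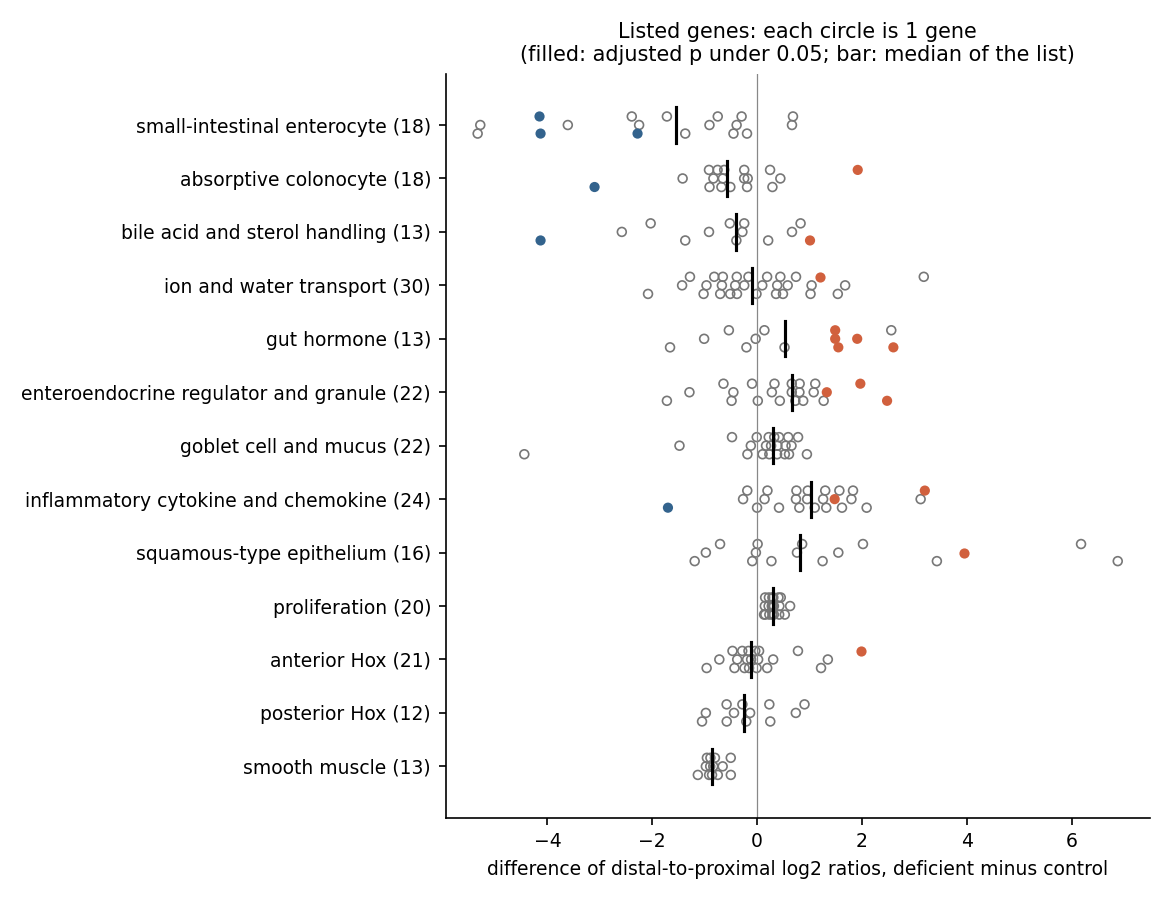
Interaction (x axis, deficient minus control difference of distal-to-proximal log2 ratios) of the genes of the lists named on the left, 1 circle per gene, filled where the adjusted p was under 0.05 (blue for lower, orange for higher), with a bar at the median of each list and the number of tested genes in brackets. Small-intestinal enterocyte genes lie mostly left of 0 with a median of -1.55, gut hormone genes have 5 filled circles right of 0, and the smooth muscle genes all lie left of 0 with a median of -0.86 and none filled.

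The within-mouse ratios of the named genes were also tested one by one. An exact two-sided permutation test over all ways to split 13 mice into 6 and 7 gave 0.000583, the smallest p it can give, for 31 of 57 genes, and the ratios of the genotypes did not overlap for 43. For Foxa1 the permutation p was 0.537. Adjusted over the 57 genes, the permutation p of the called genes was at most 0.00534. The called genes were chosen by the interaction in the same mice, so small p and ratios without overlap were largely set by that choice. They are no separate evidence, and the adjustment does not account for the choice. For each gene, the control mouse farthest towards the side of the deficient mean is called the nearest one here. These shares were not computed over all genes tested, so they do not show whether the called genes are particular in them. Control replicate 6 was the control mouse nearest to the deficient mice in proximal level for 48 of 85 genes called for the interaction and for genotype in proximal colon (56.5%), where each other control mouse was nearest for 3 to 11. In distal level it was nearest for 30 of 115 (26.1%), where the others were nearest for 11 to 24. In the within-mouse ratio it was nearest for 43 of 178 (24.2%), and control replicate 3 was nearest for 42 (23.6%).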

How the data were processed

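RNA was taken from whole pieces of proximal and distal colon and sequenced as poly(A) libraries (NEBNext Ultra, per the labels' protocols, which do not state that strand was kept). Per the submitters' processing notes, bcl2fastq 2.20.0.422, cutadapt 2.5, kallisto 0.46.2, edgeR (version not given) and the GRCm38 (mm10) build were used; read pairing was not given in these sources. Per transcript, the authors deposited estimated counts with TPM and effective lengths, and a log2 CPM matrix per segment, and the deposited TPM and log2 values were not used.

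Transcripts were joined by identifier to GENCODE M21 (116728 of 119414; the others held 0.902% to 1.23% of the counts), summed over 35975 genes and rounded. Total estimated counts were 39238691 to 54196293 per proximal and 18472867 to 56744113 per distal library. Effective lengths were 249 bases short of the transcript lengths in all distal libraries and 214.6 to 245.6 bases short in proximal ones. This difference in quantification goes along with segment in every mouse, and its share in each segment difference was not tested. With a transcript-length offset, 7577 genes differed between segments in control mice, against 7903 without it. In deficient mice 8391 did, against 8810. In the interaction a factor per gene cancels only where it is common to both genotypes. The proximal values were 227.9 to 239.4 bases in control mice and 214.6 to 229.4 bases in deficient mice, except 245.6 bases in deficient replicate 6.

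Counts were fitted with edgeR 4.0.16 (R 4.3.3; filterByExpr, TMM, glmQLFit, glmQLFTest) over 26 libraries with mouse as block, since both segments carry the same mouse number. Genotype effects within a segment were fitted over its 13 libraries. A gene passed, or was called, where its p adjusted over 17595 genes (Benjamini-Hochberg) was under 0.05. CPM are scaled by TMM, and the standard error is the log2 value divided by the square root of F. Permutation tests used log2 ratios of CPM + 0.1. Each replicate is a separate mouse. The code was tested on simulated data. The members of the comparison and the 41 gene lists were chosen with earlier results of these data known.

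Named genes were Foxa1 and Foxa2, then among called genes with a mean of at least 5 CPM in the highest group the 12 largest interactions in each direction and the 10 smallest p, the 6 smallest p of each pattern, and up to 4 called members per list (for a described list without one, the member of smallest p); unnamed genes and immunoglobulin, T cell receptor and sex-determined transcripts were not ranked. Chgb and the uncalled list members given as contrasts were chosen after their values were seen. Alternatives were DESeq2 1.42.0, limma 3.58.1, other normalization, filters, covariates and subsets of mice, and each mouse left out. Not every gene named by the rule is reported here.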

Additional observations from a re-analysis of the deposited data

Results flagged for a closer look

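The within-mouse segment ratio of 1 mouse lay far from the rest of its genotype for 8 of 114 groups (57 genes, control and deficient mice apart), where chance gives about 1 in 20. In control replicate 6 the log2 ratio was 3.29 for Ccl7 (other control mice -0.312 to 0.66), 1.62 for Car2 and -1.23 for Anpep, each on the side of the deficient mice. Control replicate 5 stood apart at -0.236 for Fam43a and at -0.282 for Btbd3, also towards the deficient mice. Fmo4 was 2.67 in control replicate 1, Nat8f3 was 1.90 in deficient replicate 3, and Scg3 was 1.29 in deficient replicate 1. Further, the 178 genes called for the interaction are by definition genes whose genotype effect differed between the segments in a test of that difference.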

How the results depend on the processing

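Those of the 178 genes that were still tested had the same sign in each alternative. With the filter of at least 1 CPM in at least 6 libraries, 159 of them were tested, and in each other alternative 177 or 178. Of the 56 called genes that are named, 24 kept their call under every alternative and 38 with each single mouse left out. Leaving out 1 mouse gave 102 calls (without control replicate 2) to 225 (without deficient replicate 2), 36 to 107 higher and 66 to 118 lower, and 110 without deficient replicate 3. The same ranges were 6559 to 8230 genes for the segments in control mice, 7461 to 8942 in deficient mice, 1377 to 2020 for genotype in proximal and 757 to 1004 in distal colon. DESeq2 called 529 genes (238 higher, 291 lower; 176 of them shared) and 1562 for genotype in distal colon. The limma fit with distal Hoxd13 as covariate called 313 (135 higher, 178 lower), against 221 in limma without it. With the smooth muscle level as covariate 118 passed (35 higher) and 2028 for the segments in deficient mice. Mice of 9 to 13 months alone gave 106 (44 higher, 62 lower), and mice labelled male alone gave 123, of which 49 were higher. Male mice without the mouse lacking Y transcripts gave 70 (27 higher, 43 lower) and 5618 for the segments in deficient mice. For the segments in control mice, controls without Cre gave 5146 and the pan-epithelial covariate 4659. Without the block for mouse, which pairs the segments, 222 genes passed over 26 libraries (147 shared) and 252 over 27. Foxa1 turned to 0.171 with a transcript-length offset (adjusted p = 0.853), against -0.14 in the reported fit; it was negative, down to -0.479, under every other alternative run and called under none. With that offset 142 of the 178 calls were shared, and Pld2, Nkx2-2, Pappa2, Pax4, Hoxd4, Ccl3, Slc6a20a and Ano1 were not called (adjusted p between 0.0523 and 0.165). The cause of these shifts was not tested, except that smaller subsets hold fewer mice.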

Other observations

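Further genes of the interaction were not among those named above and were chosen here after their values were seen. Whether each of their calls held under the alternatives or with single mice left out was not examined. In distal colon alone, deficient mice had lower RNA levels of 2 genes for actin-severing proteins of the gelsolin family. Gsn had mean levels of 193 and 189.5 CPM proximally and 384 and 166 CPM distally in control and deficient mice (interaction -1.11, adjusted p = 0.0109). Scin had 153 and 150 CPM proximally and 371 and 178 CPM distally (interaction -1.02, adjusted p = 0.00833). Suox, sulfite oxidase, fell in distal colon by 2.16 (interaction -1.80, adjusted p = 0.00652), and Ephx2, soluble epoxide hydrolase, fell by 1.24 (interaction -1.39, adjusted p = 0.0102). Prkacb, a catalytic subunit of protein kinase A, had distal means of 186 and 84.0 CPM, and Prkaa2, a catalytic subunit of AMP-activated kinase, had 150 and 73.9 CPM (adjusted p of the interaction 0.0327 and 0.0247).

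Gains in distal colon alone included Gdf15, a stress-induced cytokine, with distal means of 3.75 and 20.7 CPM (interaction 1.75, adjusted p = 0.0259), Tlr2, a receptor for bacterial lipoproteins, with 39.0 and 86.7 CPM (interaction 1.43, adjusted p = 0.00507), and Bmp3, a member of the bone morphogenetic protein family, with 19.7 and 43.4 CPM (interaction 1.27, adjusted p = 0.0139). Npy2r, the receptor for peptide YY, and Sstr5, a somatostatin receptor, also rose in distal colon alone, by 2.54 and 1.35 (interactions 2.53 and 1.63, adjusted p = 0.0026 and 0.00771). Fzd10, a Wnt receptor, fell by 1.56 in proximal and rose by 1.64 in distal colon (interaction 3.26, adjusted p = 0.0054). Wnt3, the Wnt ligand of Paneth cells, rose in both segments, by 2.16 in proximal and 4.25 in distal colon (interaction 2.16, adjusted p = 0.0132). Npy2r, Fzd10 and Wnt3 were low, with means under the 5 CPM needed for the ranking of named genes in every group. All p-values here are from the edgeR quasi-likelihood test.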
